A study of Mus musculus with 6 samples.

Results

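The 40 genes described here act in autophagy or in the lysosome, and their RNA was measured in stage 0 iNKT cells, the earliest invariant natural killer T cells of the thymus, from BALB/c and SKG mice. They are the 40 of 48397 rows of the count table whose symbols are in a list of autophagy and lysosome genes, and all 40 were found. Of these, 24 encode the autophagy machinery, 14 encode lysosomal proteins, and Tfeb and Tfe3, which encode transcription factors for both, were kept apart. The comparison asks whether these genes differ between early iNKT cells that receive normal and reduced signals through the T cell receptor (TCR).

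The experiment held 6 libraries, 3 from wild-type BALB/c mice and 3 from SKG mice, which have the same BALB/c background and a hypomorphic Zap70 mutation. Zap70 is the kinase that relays signals from the TCR, and the mutation is present in the whole animal rather than in iNKT cells alone. All mice were 8 to 10 weeks old, and each library came from about 1000 cells sorted from the thymi of 3 mice, so a replicate was a pool of mice. The sort took cells that bound the PBS57-CD1d tetramer, expressed CD24 and CD69, lacked CD44 and CD8, and had little or no CD4. In the sample titles the name SKG is spelled SGK.

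In autophagy, the ULK1 kinase complex and a phosphatidylinositol 3-kinase complex start a membrane, which grows around cargo as proteins of the Atg8 family are attached to its lipids by a ubiquitin-like conjugation system, and which then fuses with a lysosome. The lysosome degrades proteins, lipids and glycans with acid hydrolases, and TFEB and TFE3 activate many genes of both systems. iNKT cells are known to need autophagy genes for their development and survival, and they are selected on lipids presented by CD1d, a protein that passes through the endosomes and lysosomes of other thymocytes.

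The reads counted per library ranged from 37176544 to 43115544, and genes with at least 10 reads from 10835 to 14791. Zap70 was at 448 ± 65.4 CPM (counts scaled to TMM-normalized library totals; SD, n = 3 libraries) in BALB/c and 356 ± 45.9 in SKG, with overlapping libraries and an adjusted p of 0.953 (edgeR quasi-likelihood F test, Benjamini-Hochberg). The known SKG mutation changes a residue of the protein, so this level does not check the label. Of 15 iNKT and T cell markers, 14 had at least 10 reads in every library, the exception being Trav11, which has a near-identical copy. The summed CPM of 8 marker lists, for iNKT cells, double-positive thymocytes, myeloid cells and other cell types, overlapped between the genotypes in every case. Among the single markers that passed the filter, 5 had libraries that did not overlap, no larger a share than the 13.9% of all genes tested. Cd69, a marker of the sort, was at 353 ± 39.9 CPM in BALB/c and 193 ± 50.4 CPM in SKG (SD, n = 3, unadjusted p 0.00640, edgeR), Egr2 at 1351 ± 230 and 777 ± 249 CPM (unadjusted p 0.0243, edgeR), and Aqp11 and Nkg7 were also higher in BALB/c. Slamf6 was higher in SKG, at 2628 ± 223 and 3325 ± 338 CPM (unadjusted p 0.0336, edgeR). Their adjusted p in edgeR was 0.686 or more, and the part of these differences in the levels of autophagy and lysosome genes was not tested. In bulk libraries, fewer cells with a transcript and less of it per cell cannot be told apart.

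All 40 genes passed edgeR's filter on low counts. Between SKG and BALB/c the quasi-likelihood F test of edgeR called 0 of 40 (FDR under 0.1, at least 1.5-fold), as it called 0% of the 12312 genes tested, and limma-voom called 0 of 40 too. The lowest adjusted p among the 40 was 0.716 (edgeR, Benjamini-Hochberg). At an unadjusted p under 0.05 there were 3 of 40 genes (7.5%), all higher in SKG, beside 5.45% of all genes tested, 3.07% with SKG higher and 2.38% with BALB/c higher. DESeq2 at the same thresholds called 1 of 40, Mcoln1, with or without shrinkage of fold changes, beside 1.67% of its genes with shrinkage and 2.58% without.

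The genotypes were also compared library by library. For 5 of 40 genes (12.5%) every SKG library lay above every BALB/c library, and for 0 of 40 the reverse held. Among all genes tested the libraries did not overlap for 13.9%, with SKG higher for 6.77% and BALB/c higher for 7.12%. The 5 genes were Atg13, Atg9a and Atg4b among the 24 autophagy genes (12.5%) and Mcoln1 and Laptm5 among the 14 lysosome genes (14.3%). The split depended on the scaling. With upper-quartile factors in place of TMM, 4 members were higher in SKG, Atg4b no longer among them, and 2, Gabarapl2 and Psap, were higher in BALB/c, and with library totals alone Psap was the only one higher in BALB/c beside the same 4. Across the autophagy genes the median log2 fold change, SKG over BALB/c, was 0.22, with 17 values above 0 and 7 below. Across the lysosome genes it was 0.15, with 9 above 0 and 5 below, and across all genes tested it was -0.016. The difference between the autophagy and the lysosome genes was not tested.

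The precision of these fold changes followed the expression level. The 95% interval of the log2 fold change reached 0.75 to either side for the median member, or 1.68-fold, and 1.5 for the median gene tested, or 2.83-fold. For 15 of 40 members (37.5%) the whole interval lay inside a 2-fold difference in either direction, beside 19.8% of all genes tested. These were Atg3, Atg4b, Atg7, Becn1, Gabarap, Gabarapl2, Map1lc3b, Sqstm1, Ctsa, Ctsb, Ctsd, Hexa, Laptm5, Npc2 and Psap. For the other 25 a 2-fold difference in at least 1 direction lay within the interval.

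**Figure D1:**
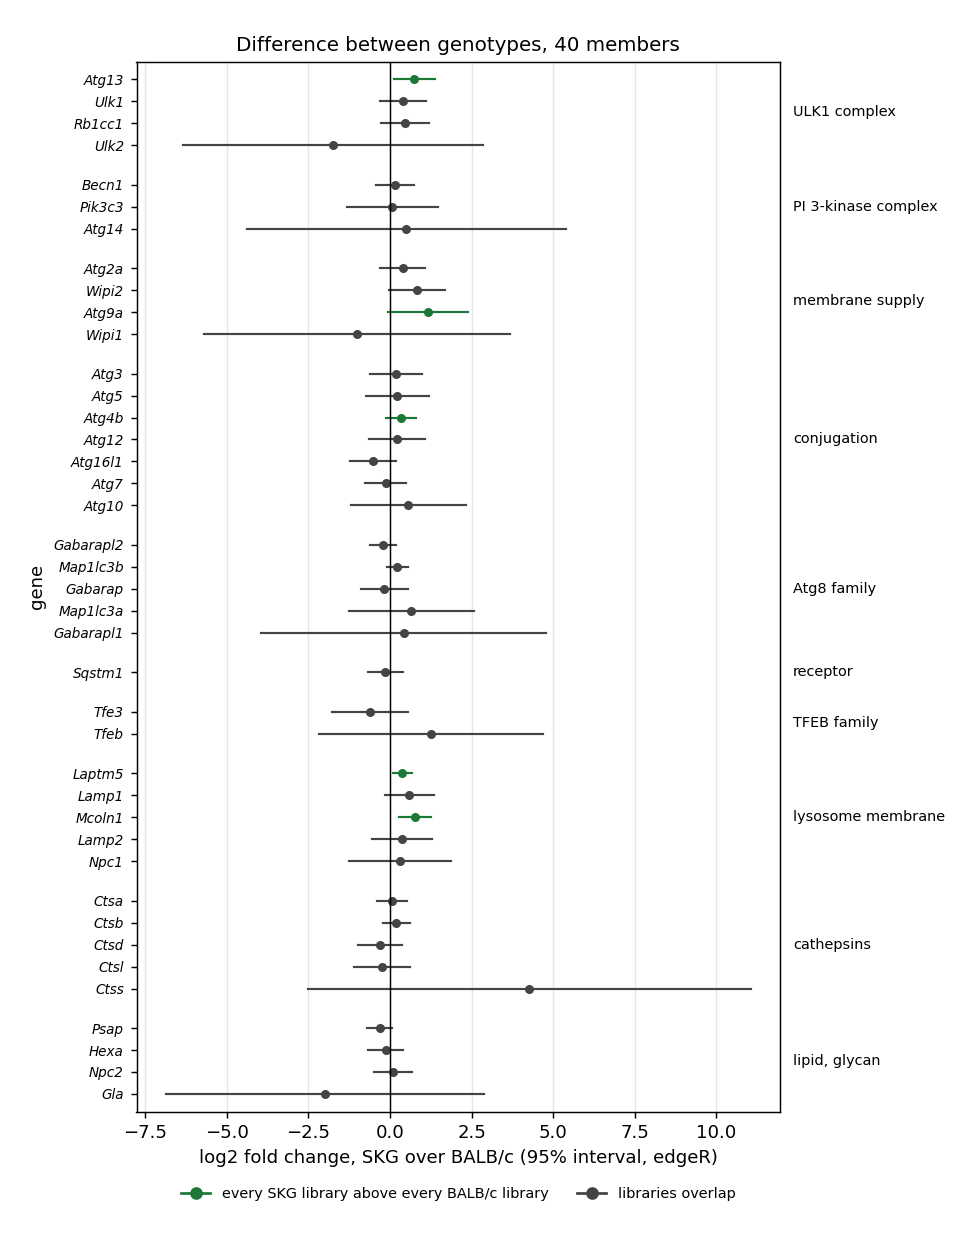
Log2 fold change, SKG over BALB/c (horizontal axis), of each of the 40 genes grouped by role (vertical axis), as points with 95% intervals from the edgeR fit. Green marks the 5 genes whose libraries did not overlap between genotypes, and the intervals of 7 genes with under 10 reads in at least 1 library span many-fold differences.

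Many lysosomal and some autophagy genes carry a copy of the E-box CACGTG in the promoter, the core of the element that TFEB and TFE3 bind. The promoter windows of RefSeq (GRCm38.p6, 250 bases before to 50 after the start of transcription) were found for 32 of the 40 genes, and CACGTG, whose reverse complement is the same word, was searched in them. It occurred in 10 of 32 members (31.2%), 6 of 12 lysosome genes (50%) and 4 of 18 autophagy genes (22.2%), beside 12.4% of the genes tested with a window and 7.15% of all 32851 windows. The longer word TCACGTGA, which contains it, occurred in 5 of 32 members (15.6%), beside 2.42% of the genes tested and 0.974% of all windows. Stretches with these words are shown for Lamp1, where they cluster, Atg3 from the conjugation system, Mcoln1, whose libraries did not overlap, and the hydrolases Ctsd and Gla. They are written 5′ to 3′ on the strand of the gene, with CACGTG in capitals.
Lamp1, chr8:13159041-13159160, + strand: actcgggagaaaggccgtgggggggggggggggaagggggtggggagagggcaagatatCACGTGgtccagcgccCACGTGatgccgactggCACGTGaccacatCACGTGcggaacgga
Atg3, chr16:45158709-45158784, + strand: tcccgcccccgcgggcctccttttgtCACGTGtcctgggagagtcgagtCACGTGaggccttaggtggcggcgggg
Mcoln1, chr8:3500399-3500456, + strand: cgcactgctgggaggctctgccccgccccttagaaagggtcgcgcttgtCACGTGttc
Mcoln1, chr8:3500463-3500490, + strand: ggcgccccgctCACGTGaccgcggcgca
Ctsd, chr7:142387909-142387936, - strand: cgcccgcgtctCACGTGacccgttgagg
Gla, chrX:134601216-134601243, - strand: aagcgattgatCACGTGagcatctacgt
Gla, chrX:134601183-134601210, - strand: gagatctcggtCACGTGagcaactctcg

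The stretch of Lamp1 held 4 copies, that of Atg3 2 copies, and the 2 stretches of Mcoln1 1 copy each. The second site of Mcoln1 and the site of Ctsd lie in annotated exons of these genes, and both sites of Gla lie in an annotated exon of the neighbouring gene Hnrnph2. The 10 members with CACGTG had log2 fold changes from -1.99 to 0.76 with a median of 0.12, and 6 of them were above 0. The 22 members with a window that lacked the word had a median of 0.36, and 14 of them were above 0, among them Atg13, Atg9a, Atg4b and Laptm5. The word was thus absent from 4 of the 5 members without overlap, beside 22 of all 32 members with a window. The difference between these groups was not tested. A match to these letters is a description of the window and does not show that a factor binds there.

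The ULK1 complex, which starts autophagy, has 4 members here. Atg13 encodes its adaptor subunit (chromosome 2, 91674618 to 91710576). It was at 65.3, 123 and 92.5 CPM in BALB/c replicates 1 to 3 and at 144, 160 and 168 CPM in SKG replicates 1 to 3. Every SKG library was thus above the highest BALB/c library, which was replicate 2. Its log2 fold change was 0.75 (SE 0.26), or 1.68-fold, with an unadjusted p of 0.0262 and an adjusted p of 0.834 (edgeR, Benjamini-Hochberg), and it ranged from 0.55 to 0.99 as each library was left out in turn.

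Ulk1, the kinase of the complex, was at 101, 58.4 and 61.7 CPM in BALB/c and 79.6, 104 and 108 CPM in SKG, and BALB/c replicate 1 lay among the SKG values. Rb1cc1, which encodes the scaffold subunit FIP200, was at 84.2, 150 and 74.5 CPM in BALB/c and 147, 157 and 119 CPM in SKG, and here BALB/c replicate 2 lay among the SKG values. Their log2 fold changes were 0.40 (SE 0.29) and 0.45 (SE 0.31), each with an adjusted p of 0.988 or more in edgeR. The reads of Ulk2, a second kinase of the same kind, numbered 128, 379 and 2081 in BALB/c and 696, 6 and 8 in SKG, so that neither genotype had a common level. Summed over the 4 genes, the libraries held 253 to 342 CPM in BALB/c and 388 to 422 CPM in SKG, without overlap.

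The phosphatidylinositol 3-kinase complex makes the lipid PI3P on the growing membrane. Becn1, which encodes its regulatory subunit Beclin 1, was at 137, 239 and 153 CPM in BALB/c and 213, 191 and 182 CPM in SKG. The SKG libraries lay within the range of BALB/c, and the log2 fold change was 0.15 (SE 0.24, 95% interval -0.43 to 0.73). Of the exon bases of Becn1, 43.9% are shared with Cntd1 on the other strand, and counting ignored strand. Cntd1 itself had at most 41 reads in any library, and the effect of the shared bases on the Becn1 count was not tested.

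Pik3c3, the catalytic subunit, was at 73.1, 45.4 and 74.3 CPM in BALB/c and 25, 52.5 and 125 CPM in SKG, so that the lowest and the highest of the 6 values were both from SKG. Its log2 fold change of 0.073 (SE 0.59) became -0.71 without SKG replicate 3. Atg14, which brings the complex to the site where autophagosomes form, was counted 898, 2 and 974 times in BALB/c and 1711, 733 and 3 times in SKG. In each genotype 1 library was thus almost without Atg14 reads while the others had 733 or more. Summed over the 3 genes, the libraries held 232 to 284 CPM in BALB/c and 262 to 308 CPM in SKG, with overlap.

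Of the genes for membrane supply, Atg9a encodes the membrane protein whose vesicles seed the autophagosome (chromosome 1, 75180860 to 75192196). It was at 27.9, 13.9 and 16.4 CPM in BALB/c and 31.5, 33.7 and 65.9 CPM in SKG. All SKG libraries were above BALB/c replicate 1, the highest of its genotype, though SKG replicate 1 only narrowly. The difference on the log2 scale was 1.17 (SE 0.51), or 2.25-fold, with an unadjusted p of 0.0585 and an adjusted p of 0.947 (edgeR, Benjamini-Hochberg), and it was 0.76 without SKG replicate 3. Of the exon bases of Atg9a, 31.8% are shared with Gm29253 on the same strand, which had 0 reads in every library. The effect of these shared bases on the Atg9a count was not tested.

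Wipi2, which binds PI3P and recruits the conjugation system, was at 77.7, 68.9 and 145 CPM in BALB/c and 145, 231 and 142 CPM in SKG. Only BALB/c replicate 3 reached the SKG values, and the log2 fold change was 0.83 (SE 0.36) with an unadjusted p of 0.0560 and an adjusted p of 0.944 (edgeR, Benjamini-Hochberg). Atg2a, which encodes a lipid transfer protein, averaged 88.5 ± 14.3 CPM (SD, n = 3) in BALB/c and 115 ± 35.3 CPM in SKG, with overlap. Wipi1, a relative of Wipi2, was nearly absent, with read numbers of 0, 15 and 39 in BALB/c and 22, 3 and 0 in SKG. The 4 genes together held 159 to 266 CPM in BALB/c and 290 to 377 CPM in SKG, again without overlap.

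The conjugation system had 7 members, all with at least 10 reads in every library. Atg4b, the protease that prepares Atg8 proteins and later releases them, was at 133, 124 and 144 CPM in BALB/c and 152, 149 and 208 CPM in SKG (chromosome 1, 93751500 to 93790610). The SKG values were all higher, but 2 of them lay within 10 CPM of the nearest BALB/c library. SKG over BALB/c, the log2 fold change was 0.35 (SE 0.19, 95% interval -0.12 to 0.81), with an adjusted p of 0.971 (edgeR, Benjamini-Hochberg), and with upper-quartile factors or library totals alone in place of TMM the libraries overlapped.

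Atg5, which is joined to Atg12 in the conjugate that attaches Atg8 proteins to lipid, was at 65.5, 46.5 and 64.7 CPM in BALB/c and 43.1, 55.5 and 107 CPM in SKG. Atg7, the activating enzyme of the system, was at 103, 81.5 and 83.2 CPM in BALB/c and 103, 62.6 and 77.8 CPM in SKG. Atg3, the conjugating enzyme for Atg8 proteins, was at 105, 114 and 84.7 CPM in BALB/c and 92.5, 79.4 and 172 CPM in SKG. For Atg5 and Atg3 the SKG values reached both below and above those of BALB/c, for Atg7 SKG held the lowest values, and the log2 fold changes were 0.22 (SE 0.40), -0.14 (SE 0.26) and 0.18 (SE 0.33).

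SKG replicate 3 had the highest level of Atg5 and of Atg3 among the 6 libraries, and without it both fold changes turned below 0, to -0.24 and -0.22. The other members, Atg10, Atg12 and Atg16l1, had log2 fold changes of 0.56, 0.20 and -0.52, and their libraries overlapped. Summed over the 7 genes, BALB/c held 592 to 666 CPM and SKG 607 to 704 CPM.

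The Atg8 family, whose proteins coat the autophagosome and bind cargo receptors, was measured through 5 genes. Map1lc3b, which encodes LC3B, was the steadiest of the 33 members with at least 10 reads in every library, at 418, 402 and 445 CPM in BALB/c and 437, 543 and 496 CPM in SKG. Its highest and lowest libraries differed 1.35-fold, and its log2 fold change was 0.22 (SE 0.14). Gabarap was at 137, 86.5 and 84.8 CPM in BALB/c and 66.1, 95 and 111 CPM in SKG, with a log2 fold change of -0.18 (SE 0.30). Gabarapl2 averaged 234 ± 20.9 CPM (SD, n = 3) in BALB/c and 202 ± 27.0 CPM in SKG. The SKG levels of all 3 overlapped those of BALB/c, but those of Gabarapl2 lay below BALB/c without overlap when upper-quartile factors replaced TMM. Summed over the 5 genes, BALB/c held 742 to 818 CPM and SKG 687 to 887 CPM, with overlap.

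By CPM alone Map1lc3b was the highest of the family in every library. The order changed when CPM were divided by the length of all annotated exons, 7517 bases for Map1lc3b and 2325 for Gabarapl2. On that scale Gabarapl2 led in every library, with 37.1% to 47.9% of the summed CPM per kb. Map1lc3b followed with 22.4% to 33.0% and Gabarap with 20.3% to 29.9%, and which of the 2 came next differed between libraries. Map1lc3a took 3.56% to 5.76% in 5 libraries and 13.6% in SKG replicate 3. The reads of Gabarapl1 numbered 4, 30 and 1044 in BALB/c and 82, 847 and 304 in SKG, and its share ran from 0.0195% to 5.21%.

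**Figure D2:**
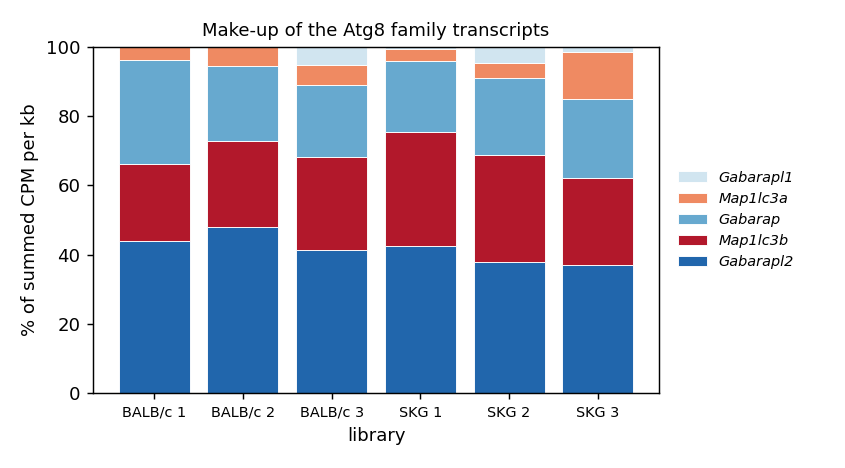
Share of each of the 5 Atg8 family genes in their summed CPM per kb (vertical axis, %) in each of the 6 libraries (horizontal axis). Gabarapl2 was the largest part of every bar, and Gabarapl1 reached 5.21% in BALB/c replicate 3 and was under 1% in BALB/c replicates 1 and 2. The order depends on the exon lengths, since by CPM alone Map1lc3b was highest in every library.

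Sqstm1 encodes p62, a receptor that ties ubiquitinated cargo to Atg8 proteins and is itself degraded in autophagy. It was at 680, 581 and 405 CPM in BALB/c and 431, 576 and 494 CPM in SKG, so that the SKG libraries lay inside the BALB/c range. Sqstm1 had a log2 fold change of -0.15 (SE 0.22, 95% interval -0.68 to 0.38). RNA levels do not show how much of the protein was turned over.

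Of the regulators, Tfe3 was at 79.9, 55.4 and 47.3 CPM in BALB/c and 43.8, 56.6 and 17.9 CPM in SKG. The highest library was from BALB/c and the lowest from SKG, with overlap between them, and the log2 fold change was -0.63 (SE 0.49). The reads of Tfeb numbered 587, 3 and 558 in BALB/c and 556, 669 and 1177 in SKG. Apart from BALB/c replicate 2, which had almost none, its libraries ranged from 12.4 to 32.5 CPM. Its log2 fold change of 1.25 (SE 1.43) was 0.66 without that library.

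**Figure D3:**
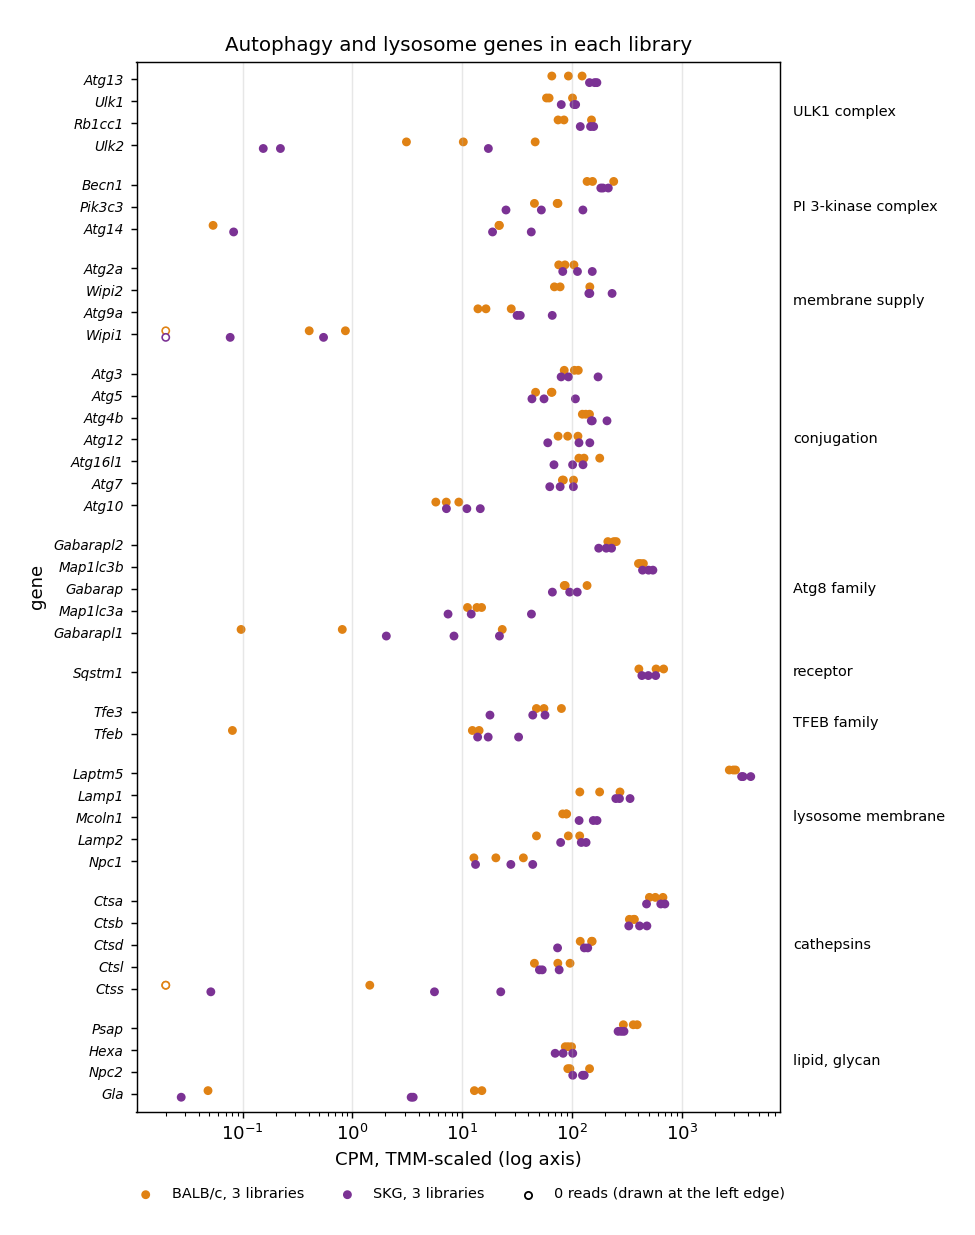
Level of each of the 40 genes (vertical axis, grouped by role) in TMM-scaled CPM (horizontal log axis), with 1 point per library in orange for BALB/c and purple for SKG. Most genes lie between 10 and 1000 CPM with mixed colours, Laptm5 lies above all others, and 7 genes spread over several powers of 10.

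Among the genes for lysosomal membrane proteins, Mcoln1 and Laptm5 had libraries that did not overlap. Mcoln1 encodes the cation channel TRPML1, which releases calcium from the lysosome (chromosome 8, 3500457 to 3515232). It was at 82, 88.2 and 89.1 CPM in BALB/c and 116, 156 and 168 CPM in SKG. The BALB/c libraries had a coefficient of variation of 4.50%, and each SKG library was above them. Its log2 fold change was 0.76 (SE 0.21), or 1.70-fold, with an unadjusted p of 0.00850 and an adjusted p of 0.716 in edgeR (Benjamini-Hochberg). In DESeq2 its adjusted p was 0.0657 with shrinkage and 0.0505 without, under the threshold of 0.1, while limma-voom gave 0.591. The value was between 0.67 and 0.90 as each library was left out.

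Laptm5 encodes a lysosomal membrane protein of blood cells that lowers the amount of antigen receptor on the surface of T and B cells (chromosome 4, 130913125 to 130936141). It was at 3070, 2926 and 2695 CPM in BALB/c and 3487, 3595 and 4224 CPM in SKG. Every SKG library was higher than every BALB/c library, with SKG replicate 3 the highest of all. Its log2 fold change was 0.38 (SE 0.12), or 1.30-fold, which is under the fold threshold. The unadjusted p was 0.0185 and the adjusted p 0.830 (edgeR, Benjamini-Hochberg), and the value was 0.30 to 0.43 as each library was left out.

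**Figure D4:**
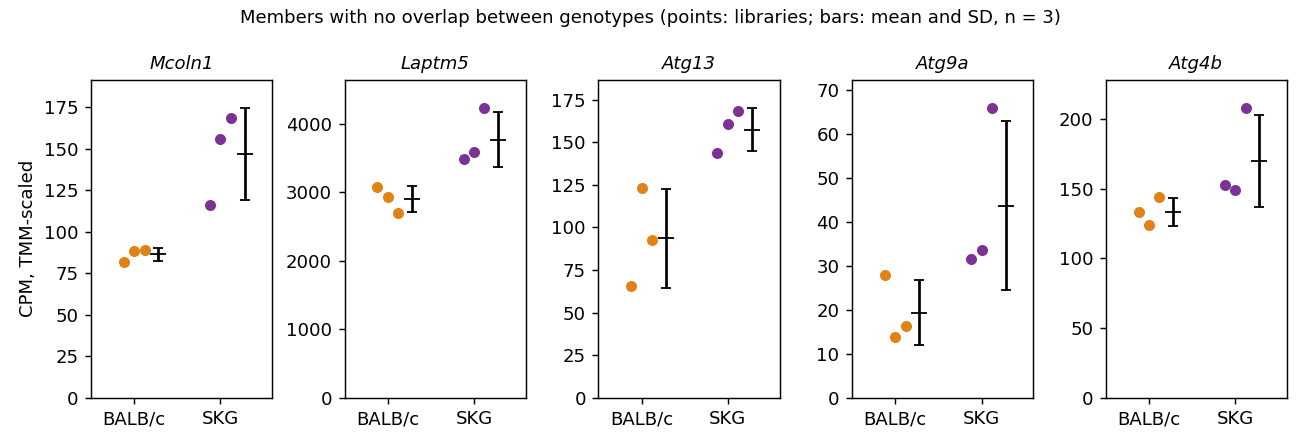
TMM-scaled CPM (vertical axis, from 0, separate for each gene) of the 5 genes whose libraries did not overlap, with 1 point per library and the mean and SD of n = 3 libraries per genotype beside them. The gap between genotypes was narrow for Atg4b and Atg9a, and the BALB/c libraries of Mcoln1 lay close together between 82 and 89.1 CPM.

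Lamp1, which encodes one of the abundant glycoproteins of the lysosomal membrane and whose upstream stretch held 4 copies of CACGTG, was at 117, 178 and 272 CPM in BALB/c and 270, 250 and 337 CPM in SKG. BALB/c replicate 3 lay among the SKG libraries and the others below them, and the log2 fold change was 0.59 (SE 0.32, adjusted p 0.959, edgeR, Benjamini-Hochberg). Lamp2, its partner glycoprotein, was at 47.4, 117 and 92.3 CPM in BALB/c and 78.6, 121 and 134 CPM in SKG. For Lamp2 the log2 fold change was 0.38 (SE 0.38), and 0.093 without BALB/c replicate 1, the lowest library. Npc1, which exports cholesterol from the lysosome, was at 36.0, 20.2 and 12.8 CPM in BALB/c and 13.2, 27.7 and 43.8 CPM in SKG, with wide overlap. All 5 membrane genes had log2 fold changes above 0, but for Npc1 the sign turned without SKG replicate 3.

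Summed over the 14 lysosome genes, the libraries held 4787 to 5206 CPM in BALB/c and 5430 to 6698 CPM in SKG, a ratio of means of 1.21. Laptm5 alone made up 56.3% to 59% of this sum in BALB/c and 60.6% to 64.2% in SKG. Without it the sums overlapped, at 2055 to 2136 CPM in BALB/c and 1942 to 2474 CPM in SKG. The 24 autophagy genes summed to 2566 to 2841 CPM in BALB/c and 2755 to 3119 CPM in SKG, with overlap. Without Sqstm1, the most abundant of them, they summed to 2140 to 2161 CPM in BALB/c and 2324 to 2583 CPM in SKG, without overlap. Both leading genes were set aside after their values were seen. As a measure in which each gene weighs the same, the deviation of log2(CPM + 1) from a gene's mean over the 6 libraries had a median over the autophagy genes of -0.14 to -0.021 in BALB/c and 0.078 to 0.16 in SKG. Over the lysosome genes it was -0.18 to 0.032 in BALB/c and -0.019 to 0.27 in SKG, with a small overlap. Over all genes tested it was 0.0089 to 0.075 and -0.014 to 0.042. The ranges of the autophagy genes did not overlap, and those of the lysosome genes did. The scaling keeps the median over all genes near 0 in each library, so its overlap is no like comparison for a small set. No sum or median of a set was tested, and with 3 libraries against 3 the smallest exact permutation p is 0.1.

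The cathepsins are the proteases of the lysosome. Ctsb was at 332, 365 and 368 CPM in BALB/c and 328, 411 and 479 CPM in SKG, and Ctsd, an aspartic protease, was at 152, 150 and 118 CPM in BALB/c and 129, 139 and 73.7 CPM in SKG. SKG replicate 3 was thus the highest library for Ctsb and the lowest for Ctsd, and the log2 fold changes were 0.19 (SE 0.17) and -0.30 (SE 0.28). Ctsl, which thymocytes need in order to present lipids to iNKT cells, was at 95.7, 45.3 and 74.1 CPM in BALB/c and 50.4, 76.2 and 53.4 CPM in SKG, and its log2 fold change was -0.26 (SE 0.36). Ctsa averaged 582 ± 83.4 CPM (SD, n = 3) in BALB/c and 605 ± 116 CPM in SKG. None of these 4 genes separated the genotypes.

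The reads of Ctss, a cathepsin that antigen-presenting cells express strongly, numbered 0, 0 and 65 in BALB/c and 225, 2 and 810 in SKG. It was far from uniform in SKG, where replicate 2 was close to 0, and its log2 fold change of 4.27 had an SE of 2.83 and an adjusted p of 0.987 (edgeR, Benjamini-Hochberg). SKG replicate 3, the highest library for Ctss, also had the highest sum of 14 myeloid markers, 216 CPM, and 3873 reads of Lyz2. BALB/c replicate 1, with 0 reads of Ctss, had the next highest sum, 93.0 CPM, and 2215 reads of Lyz2. The other 4 libraries had sums of 10.5 to 23.2 CPM, so the ranges of the genotypes overlapped. In SKG replicate 3 the myeloid genes C1qb, Cd68, C1qc, Mpeg1 and Fcgr3 had 1165, 1018, 712, 642 and 385 reads, and Cd74 and H2-Aa, from a list of 12 dendritic cell markers, had 2863 and 826. The dendritic sum was also highest there, at 174 CPM, next to 101 CPM in BALB/c replicate 1 and 19.6 to 48.5 CPM in the others. Other myeloid genes were near absent, with Cd14 at 0 in every library and Csf1r and Adgre1 at no more than 3 reads. The part of such cells in the Ctss reads was not tested.

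Genes of lipid and glycan breakdown were at similar or lower levels in SKG, without a separation. Psap, which encodes the precursor of the saposins that lift lipids out of membranes and load them onto CD1d, was at 360, 391 and 293 CPM in BALB/c and 262, 280 and 296 CPM in SKG. Only SKG replicate 3 reached above the lowest BALB/c library, and the log2 fold change was -0.32 (SE 0.16), with an unadjusted p of 0.0882 and an adjusted p of 0.952 (edgeR, Benjamini-Hochberg). With upper-quartile factors or library totals alone in place of TMM the libraries of Psap did not overlap, with BALB/c higher.

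Hexa, a subunit of a hexosaminidase that trims gangliosides, was at 98.8, 86.6 and 92.1 CPM in BALB/c and 82.7, 70.0 and 101 CPM in SKG. Npc2, the soluble partner of Npc1, was at 144, 95.4 and 91.3 CPM in BALB/c and 129, 101 and 124 CPM in SKG. Both overlapped widely, and their log2 fold changes were -0.13 (SE 0.22) and 0.10 (SE 0.25). Gla, the galactosidase that cleaves the terminal sugar of globosides, was counted 2, 478 and 681 times in BALB/c and 138, 139 and 1 times in SKG. Each genotype had 1 library with almost no Gla reads, and the log2 fold change of -1.99 had an SE of 2.04.

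The 40 genes covered a wide span of levels. Per kb of exon, Laptm5 led with 880 CPM per kb averaged over the 6 libraries, followed by Sqstm1 at 157, Ctsa at 126, Psap at 114, Gabarapl2 at 93.9 and Lamp1 at 88.7 CPM per kb. Laptm5 was above all other members in every library, at 712 to 811 CPM per kb in BALB/c and 921 to 1115 CPM per kb in SKG. The next places were not distinct, since Sqstm1 ranged from 121 to 203 CPM per kb over all libraries, Ctsa from 101 to 148 and Psap from 95.5 to 142. The lowest members were Ulk2, Gla and Wipi1, at 2.15, 1.79 and 0.0715 CPM per kb.

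In 33 of 40 genes every library had at least 10 reads, and in 28 every library had at least 1000. Among the 33, the highest library exceeded the lowest by 2.07-fold at the median, and by 5.74-fold for Map1lc3a. All genes tested were placed in 4 bins of equal size by level, and the coefficient of variation within a genotype was averaged over both. In the highest bin its median was 19.7% for the 23 members there and 20.4% for all genes. In the next bin it was 33.9% for 7 members and 33% for all genes, and in the one after it 76.5% for 8 members and 61.2% for all genes.

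The other 7 genes, Ulk2, Atg14, Wipi1, Gabarapl1, Tfeb, Ctss and Gla, had under 10 reads in at least 1 library and 681 or more in another, except Wipi1, which had at most 39. They did not drop out together. BALB/c replicate 1 lacked Wipi1, Gabarapl1, Ctss and Gla at this level, BALB/c replicate 2 Atg14, Tfeb and Ctss, SKG replicate 2 Ulk2, Wipi1 and Ctss, and SKG replicate 3 Ulk2, Atg14, Wipi1 and Gla. The libraries with all 40 genes at 10 reads or more, BALB/c replicate 3 and SKG replicate 1, were also those with the most genes detected, 14339 and 14791. The part that the number of genes detected played in these levels was not tested.

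**Figure D5:**
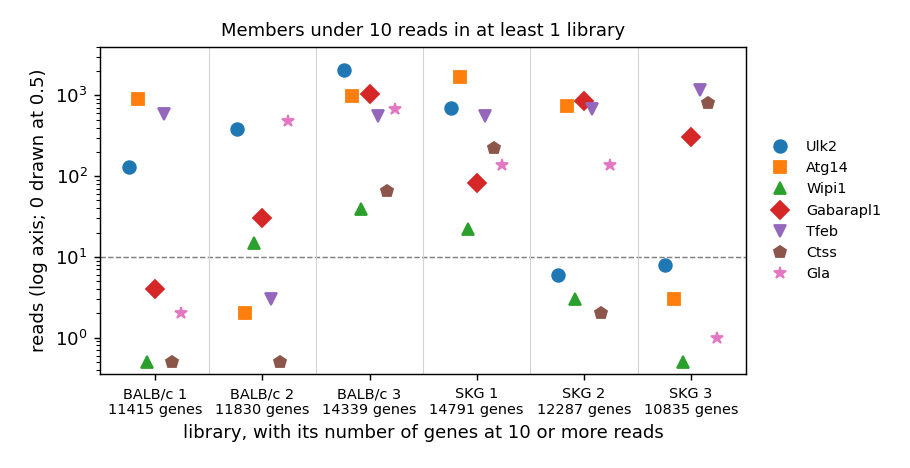
Reads (vertical log axis, with 0 drawn at 0.5) of the 7 genes under 10 reads in at least 1 library, by library (horizontal axis, with its number of genes at 10 or more reads). The dashed line marks 10 reads, and between 3 and 4 genes lie under it in each library except BALB/c replicate 3 and SKG replicate 1, where none does.

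A wider set of 137 genes of the same pathways, in 7 lists, was read from the same fit, and 127 of them passed the filter. edgeR called 0 of them, and 6 (4.72%, beside 5.45% of all genes tested) had an unadjusted p under 0.05, 2 with SKG higher and 4 with BALB/c higher. The libraries did not overlap for 15 (11.8%, beside 13.9%), 6 with SKG higher and 9 with BALB/c higher, and the median log2 fold change was -0.11. DESeq2 with shrinkage called 2 of them, Atp6v0c and Rragd, both higher in BALB/c, where it called 1.67% of all its genes. Taken as a whole, the wider set thus did not share the side of 0 on which the 40 members' median of 0.21 lay. Its lists differed, and that of further autophagy machinery had a median of 0.047, with 13 of 23 genes above 0. The median was -0.15 for selective autophagy receptors, -0.20 for hydrolases and -0.19 for genes that link the lysosome to mTORC1. For V-ATPase subunits it was -0.0046 and for lysosomal membrane proteins -0.0093. Differences between lists were not tested.

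Of the 19 genes for subunits of the V-ATPase, the pump that acidifies the lysosome, 18 were tested and 4 were among those 6, which is 22.2% beside 5.45% of all genes tested. Atp6v1b2 averaged 142 ± 25.1 CPM (SD, n = 3) in BALB/c and 227 ± 36.9 CPM in SKG (unadjusted p 0.0145, edgeR), and Atp6v0a2 134 ± 29.6 and 205 ± 48.2 CPM (unadjusted p 0.0443, edgeR). Atp6v1g1 went the other way, with 177 ± 10.8 CPM in BALB/c and 128 ± 16.5 CPM in SKG (unadjusted p 0.0310, edgeR). Atp6v0c was also higher in BALB/c, at 4.74 ± 1.44 against 0.880 ± 0.435 CPM, without overlap (unadjusted p 0.0408 in edgeR, adjusted p 0.0133 in DESeq2 with shrinkage). Processed pseudogenes of Atp6v0c are annotated, and their part in its count was not tested. The subunits thus showed no common direction, with 9 of 18 log2 fold changes above 0.

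The other 2 were Litaf and Rragd. Litaf, which encodes a protein of the late endosomal and lysosomal membrane, was at 283, 232 and 214 CPM in BALB/c and 125, 119 and 172 CPM in SKG. Every BALB/c library was higher, and the log2 fold change was -0.81 (SE 0.21), with an unadjusted p of 0.00699 and an adjusted p of 0.686 (edgeR, Benjamini-Hochberg). The reads of Rragd, a Rag GTPase that links lysosomal amino acids to mTORC1, numbered 49, 386 and 184 in BALB/c and 0, 4 and 0 in SKG. Its adjusted p was 0.826 in edgeR and 0.0290 in DESeq2 with shrinkage. The remaining lists, for further autophagy machinery, selective receptors and hydrolases, had 0 genes with an unadjusted p under 0.05 in edgeR, and Mitf and Tfec, relatives of Tfeb, did not pass the filter.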

How the data were processed

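Per the authors' methods, 50 nt reads were aligned with HISAT2 2.1.0 to GRCm38, and reads overlapping exons were counted with featureCounts (Subread 1.4.4, Ensembl 85) at a mapping quality of at least 10, without regard to strand. The authors deposited these as raw counts for 48397 genes in each of 6 libraries, without normalization or a filter. The labels name a SMART-Seq v4 kit with 18 preamplification cycles and the study's methods another kit. Which was used is not settled here, and the counts do not separate PCR copies from distinct molecules. A second deposited table, which holds the authors' own DESeq2 comparison, was not used.

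Groups were taken from the genotype labels. In R 4.3.3, all 6 libraries entered 1 fit without covariates in edgeR 4.0.16: filterByExpr by genotype, TMM normalization and quasi-likelihood F tests with Benjamini-Hochberg adjustment over 12312 genes. Calls needed an FDR under 0.1 and at least 1.5-fold. DESeq2 1.42.0, limma-voom (limma 3.58.1), other factors and filters, replicate blocks and leaving out each library were alternatives. The fits were also run on simulated data, with changes far larger than those of the members without overlap. Those runs do not show whether differences as small as these would be detected. CPM are scaled to TMM library sizes, and values per kb use exon lengths of the GENCODE annotation of GRCm38. The length of a gene takes in all its annotated exons, with shared bases counted once, whether or not these cells use them. With 3 libraries against 3, an exact permutation test on 1 gene has a smallest p of 0.1, so none was run. The p-values of the fits set the difference between genotypes against the spread between libraries. Each library was 1 pool of mice, so the spread between pools and that between preparations cannot be told apart. Numbers in the titles and library numbers in the labels were checked as pairings: residuals of libraries with the same number correlated between -0.145 and 0.00289, so libraries were not paired. Exons of 14 members overlap another annotated gene, and for 10 of them that gene is in the count table. The effect of these overlaps on the counts was not tested.

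The 40 genes and the further gene lists were chosen with earlier results of these data known. Values in every library are given for members with an unadjusted p under 0.05, with libraries that did not overlap, or chosen by role, and for Wipi2 and those under 10 reads in a library, a choice made after the values were seen. The other members are given by range or mean, and genes of the wider lists were named at an unadjusted p under 0.05.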

Additional observations from a re-analysis of the deposited data

How the results depend on the processing

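The count of called members, 0 among the autophagy and 0 among the lysosome genes, was the same with other normalization factors, other filters, limma-voom, either replicate block, no fold threshold, a stricter FDR of 0.05 or any 1 library left out. With DESeq2, with or without shrinkage, it was 1 among the lysosome genes, Mcoln1. Over all genes, DESeq2 called 370 without and 231 with shrinkage, and edgeR without a filter called 2. Median-of-ratios factors raised the autophagy genes without overlap from 3 to 5, by Wipi2 and Map1lc3b, all higher in SKG. Upper-quartile factors gave 3, of which Gabarapl2 was higher in BALB/c and Atg4b was no longer one, added Psap, higher in BALB/c, to the lysosome genes, and lowered the autophagy median log2 fold change to 0.17. With library numbers as a replicate block the lysosome median was 0.28, and with the numbers in the titles 0.15. Neither block called a member.

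Leaving out each library in turn gave 3 to 9 autophagy and 3 to 6 lysosome genes without overlap, where fewer libraries leave more genes apart (20.7% to 25.8% of all genes). The median of the autophagy genes was 0.20 to 0.30 (highest without SKG replicate 1), and that of the lysosome genes 0.027 (without BALB/c replicate 3) to 0.26 (without SKG replicate 1).

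The sign of the fold change held in every setting run for 24 of 40 members, among them the 5 without overlap. For these 5, leaving out 1 library cannot turn the sign while the scaling stays the same, so those settings did not check it. Outside the settings that left out a library it turned for Pik3c3 (-0.25 with limma-voom, -0.17 with the title block) and Npc2 (-0.064 with the library number block). With 1 library left out it turned for 16 members, whose log2 fold changes then ranged as follows: Atg12 -0.071 to 0.50, Atg14 -0.61 to 1.09, Atg3 -0.22 to 0.40, Atg5 -0.24 to 0.46, Atg7 -0.35 to 0.028, Ctsa -0.051 to 0.20, Ctsl -0.51 to 0.015, Gabarap -0.33 to 0.091, Gabarapl1 -0.61 to 4.57, Hexa -0.26 to 0.00213, Map1lc3a -0.43 to 1.03, Npc1 -0.15 to 0.78, Npc2 -0.015 to 0.34, Pik3c3 -0.71 to 0.46, Sqstm1 -0.33 to 0.028 and Wipi1 -3.34 to 0.058. The cause was not tested. Members with under 10 reads in a library had intervals of many-fold width, so differences smaller than that were not detectable in edgeR's fit.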
